A study of Arabidopsis thaliana with 13 samples.

Results

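COR47 (AT1G20440) and KIN2 (AT5G15970), 2 cold and dehydration genes of Arabidopsis, were followed across the day as the features of a spotted cDNA array that the platform annotation assigns to them. COR47 had 5 features and KIN2 had 1, so that 6 of the 12800 features and 2 of the 3689 named genes are described here. RNA of a later and an earlier harvest was compared in 2 colours on each of 13 arrays, in 2 arrays for 6 h against 0 h, 5 for 12 h against 0 h, 2 for 18 h against 0 h, and 1 each for 24 h against 0 h, 36 h against 24 h in the dark, 36 h against 24 h with no light condition in the labels, and 60 h against 48 h. For the last pair, plants from cycles of 12 h light and 12 h dark had been moved to continuous light, and stood in it for 36 h at the later and 24 h at the earlier harvest. Light and dark hours of the other arrays, and the ecotype, tissue and age of the plants, are not given in the sources used here, and no treatment with cold or drought is named in the labels.

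COR47 encodes an acidic dehydrin, a hydrophilic protein of the late embryogenesis abundant class that protects membranes and proteins when cells lose water. KIN2, also known as COR6.6, encodes a small hydrophilic protein. Both genes are known for strong induction by low temperature, drought and abscisic acid. In the cold they are activated by the CBF factors, whose own induction by cold is gated by the circadian clock. In TAIR10.1, COR47 lies next to the related dehydrin gene ERD10, and KIN2 next to KIN1, its near-identical tandem copy. Neither ERD10 nor KIN1 had a named feature, and a cDNA feature can also bind RNA of a close copy, so the values of KIN2 may hold signal of KIN1 and those of COR47 signal of ERD10. In whole-plant or tissue RNA, fewer cells with the transcript and less transcript per cell cannot be told apart.

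All values are log2 ratios of the later over the earlier time after subtraction of the array's median, and a value of 1 is a doubling. Ratios were read as channel 2 over channel 1. That direction is called likely, since it is not stated in the sources used here, and the other reading turns every sign. On the array labelled dark, this reading gave MCCA, MCCB and IVD, enzymes of leucine breakdown known for induction in darkness, log2 ratios of 3.53, 2.68 and 3.06. Array 1 of 12 h against 0 h stood apart: its features had an SD of 0.382, compared with 0.626 to 0.858 elsewhere, and a ratio beyond 2-fold was seen for 2.07% of them, compared with 7.29% to 21.6% elsewhere. Over all features it correlated at -0.007 to 0.084 with the other arrays against 0 h of its channel order, whose pairs lay at 0.219 to 0.593. Array 1 of 18 h also stood apart, with correlations of 0.104 to 0.172 with the arrays against 0 h of its channel order, where the other pairs lay at 0.518 to 0.696.

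At 6 h against 0 h, COR47 stood at 2.02 on array 1 and 1.93 on array 2, a 4.06-fold and a 3.81-fold higher level at 6 h. These arrays had opposite channel orders and were read with different versions of the scanning software, and their COR47 values differed by less than 0.1. Of all targets on the array, 1.27% had a larger ratio than COR47 on array 1 and 0.87% on array 2. KIN2 stood at 1.90 on array 1 and at 1.45 on array 2. Both genes were thus well above 0 on both arrays. The linear model gave COR47 a change of 1.98 ± 0.35 (SE, n = 2 arrays), with a 95% confidence interval of 1.18 to 2.77. This did not pass at the 5% level after Benjamini-Hochberg adjustment over all targets in limma (adjusted p = 0.0586, unadjusted p = 0.000275). KIN2 had a change of 1.68 ± 0.73 (limma adjusted p = 0.324), with an interval of 0.04 to 3.32. In this comparison 0 of the 2 genes were called, against 0.00886% of all targets, a single target of 11290, while 15.0% of targets had an unadjusted p under 0.05. Both genes had an unadjusted p under 0.05. Without array 1 of 12 h, whose values enter through the shared spread and the dye term, COR47 passed at 6 h (limma adjusted p = 0.0248). In that fit 272 targets were called at 6 h, against 1 with all arrays, so the pass came with a shift over all targets. Without array 1 of 6 h the change was 1.31 for COR47 and 0.81 for KIN2, and without array 2 of 6 h it was 2.64 and 2.55. Only the 6 h and 12 h comparisons hold both channel orders, so the dye term rests on their arrays. With 1 array of 6 h left, that term came from the 12 h arrays alone and shifted the remaining ratio. For COR47 the remaining ratio was 1.93 without array 1 and 2.02 without array 2. The spread from 1.31 to 2.64 is thus not a disagreement between the 6 h arrays. The title of array 2 lists its times in another order than its channels do, and the channels were followed. With that array turned as its title reads, the change at 6 h was 0.67 ± 0.87 for COR47 and 0.87 ± 1.08 for KIN2 (limma adjusted p = 1 for both). The call of COR47 at 12 h was then lost (limma adjusted p = 0.325). That loss was not particular to COR47, since 0 of all targets were called at 12 h in that fit, against 464 with the channels followed.

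**Figure D1:**
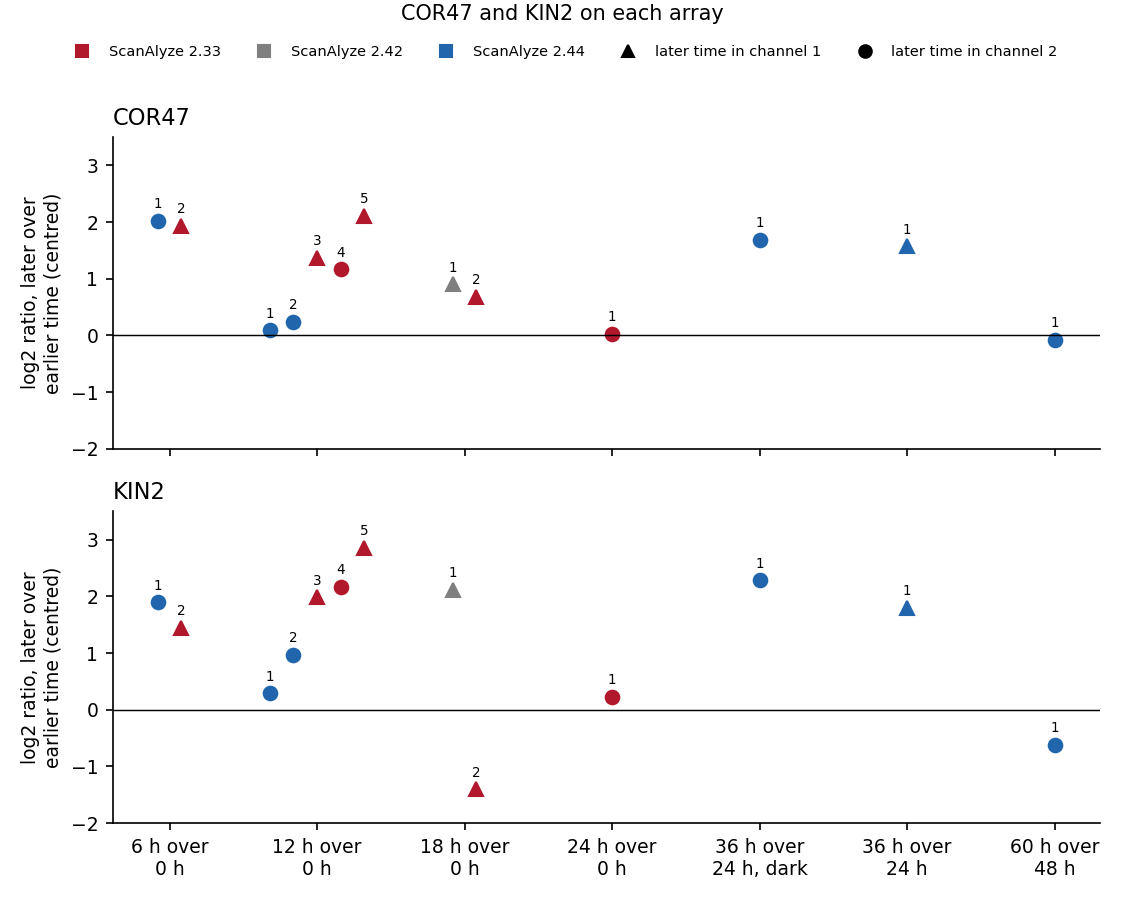
Log2 ratio of the later over the earlier time (y axis) of COR47 (upper panel, mean of 5 features) and KIN2 (lower panel, 1 feature) on each of the 13 arrays, grouped by comparison (x axis). Numbers are array numbers, colours the version of the scanning software and shapes the channel of the later RNA; at 12 h the 2 arrays of ScanAlyze 2.44 lie below the 3 of ScanAlyze 2.33, and at 18 h the 2 arrays of KIN2 lie on opposite sides of 0.

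At 12 h against 0 h, COR47 rose by 1.08 ± 0.23 (SE, n = 5 arrays, limma adjusted p = 0.0355), which is 2.11-fold, with an interval of 0.57 to 1.59. The 5 arrays gave COR47 0.09, 0.24, 1.37, 1.17 and 2.11 in the order of their numbers, a mean of 1.0 ± 0.84 (SD). All 5 were above 0, but arrays 1 and 2 were close to it and array 5 was over 4-fold. KIN2 gave 0.29, 0.97, 1.99, 2.17 and 2.86 on the same arrays, a mean of 1.66 ± 1.02 (SD). It was higher than COR47 on each of them. The fitted change of KIN2 was 1.74 ± 0.47, or 3.33-fold, with an interval of 0.68 to 2.79, and did not pass (limma adjusted p = 0.0722, unadjusted p = 0.00452). So 1 of the 2 genes was called, where 4.11% of all targets were. Only 0.381% of targets had a larger fitted change than KIN2 and 1.62% a larger one than COR47. KIN2 had the larger fitted change of the 2 genes and an SE about 2 times that of COR47. That SE draws on all arrays, and without either array of 18 h it was 0.31 for KIN2.

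The 5 arrays of 12 h differed by scanning software, by channel order and by the wording of their titles. The title of array 1 holds the word single and that of array 2 the word biological, while those of arrays 3 to 5 hold neither. Within ScanAlyze 2.33, COR47 had a mean of 1.55 over 3 arrays and KIN2 of 2.34. Within ScanAlyze 2.44, on arrays 1 and 2, COR47 had a mean of 0.16 and KIN2 of 0.63. For both genes every array of the first set lay above every array of the second. By channel order, COR47 had a mean of 1.74 over the 2 arrays with 12 h RNA in channel 1 and of 0.50 over the 3 with it in channel 2. The corresponding means of KIN2 were 2.43 and 1.14. Array 4, read with 2.33, had 12 h RNA in channel 2 as arrays 1 and 2 did. It gave 1.17 for COR47 and 2.17 for KIN2. The dye term of the model, the value with the later time in channel 2 minus that with it in channel 1, was -0.85 ± 0.38 for COR47 and -0.78 ± 0.79 for KIN2, with limma adjusted p = 0.299 and 0.624. Fitted on the arrays of 1 version alone, a setting chosen after the values were seen, COR47 had a value at 12 h of 1.46 within ScanAlyze 2.33 and of 0.16 within 2.44, and KIN2 of 2.30 and 0.63. The difference between versions was not tested, and at 12 h it cannot be told apart from the wording of the titles. The call of COR47 did not hold without array 2 (limma adjusted p = 0.0876), array 3 (0.165), array 4 (0.110) or array 5 (0.218) of 12 h, when the dye term was left out (0.0915), when all arrays were scaled to 1 spread (0.0508), or when ScanAlyze 2.33 had a dye term of its own (0.06). KIN2 passed without array 1 of 12 h (limma adjusted p = 0.0431), without either array of 18 h (0.0366 each) and with the separate dye term (0.0472).

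On each of the 5 arrays of 12 h the ratio of COR47 was below that of KIN2, with a COR47 minus KIN2 of -0.20, -0.74, -0.62, -1.0 and -0.75. The mean was -0.66 ± 0.29 (SD, n = 5). An exact two-sided sign-flip permutation test gave p = 0.063, the smallest it can give with 5 arrays, so that the design cannot reach the 5% level. At 6 h the order was the other way on both arrays, with COR47 above KIN2 by 0.12 and 0.48. No test of that turn was made. COR47 is the mean of 5 features here, and the order depended on the feature. At 6 h feature 7722 stood at 1.70 and 1.29, below KIN2 at 1.90 and 1.45. On array 5 of 12 h, feature 12517 and KIN2 both stood at 2.86. A mean of 5 features set against 1 feature cannot show that the genes changed by unequal amounts.

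At 18 h against 0 h the 2 arrays gave COR47 the same sign and KIN2 opposite signs. They correlated at 0.13 over all features. COR47 stood at 0.90 and 0.68, with a fitted change of 0.36 ± 0.40 (n = 2, limma adjusted p = 0.946) after the dye term had been taken out. These means hid differences between features. On array 1 feature 1423 stood at 1.5, feature 12517 at 1.64 and feature 7722 at -0.13, and on array 2 at 0.35, 0.39 and 0.67 in that order. KIN2 stood at 2.12 on array 1 and at -1.40 on array 2. It was thus 4.35-fold higher at 18 h on 1 array and 2.64-fold lower on the other, and 98.4% of the targets of array 2 had a larger ratio. Both arrays had the 18 h RNA in channel 1. They were read with ScanAlyze 2.42 and 2.33. The fitted change of KIN2 was -0.03 ± 0.83 (limma adjusted p = 0.998), with an interval of -1.90 to 1.84, so that changes of 3-fold in either direction lie within it. Without array 2 of 18 h it was 1.73, and without array 1 it was -1.79. In this comparison limma called 0% of all targets, with 5.99% at an unadjusted p under 0.05, and 0 of the 2 genes. Neither gene was under 0.05 before adjustment.

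At 24 h against 0 h, 1 day apart, both genes lay near 0. COR47 stood at 0.03, with its 5 features between -0.10 and 0.19. KIN2 stood at 0.23, and 25.6% of all targets on that array had a larger ratio. The fitted values were 0.46 ± 0.54 for COR47 and 0.61 ± 1.11 for KIN2 (1 array, both with limma adjusted p = 1), with 0 of the 2 genes called and 0.0177% of all targets. Here and in the other comparisons with 1 array, the lone array is assumed to vary like the rest.

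**Figure D2:**
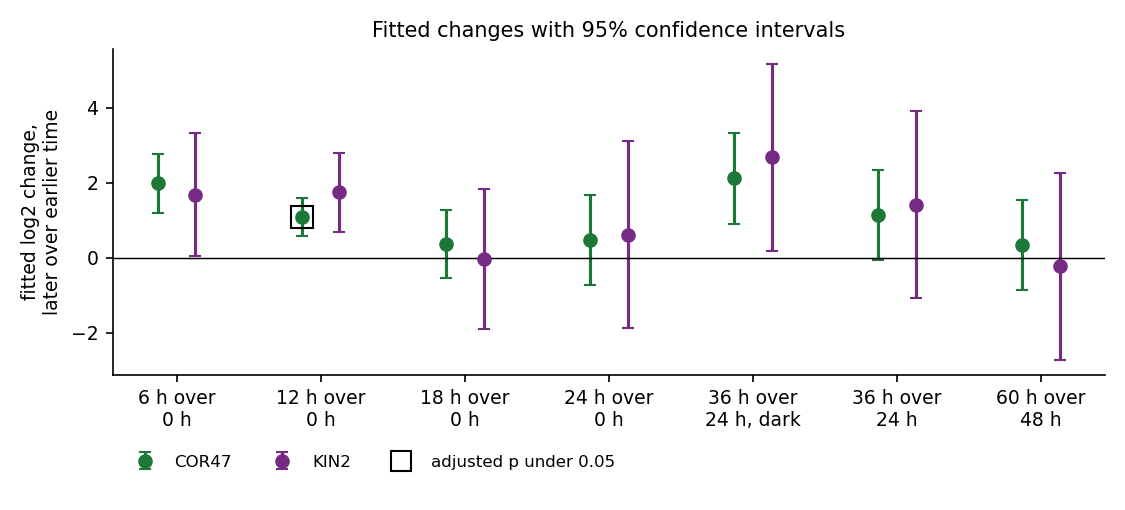
Fitted log2 change, later over earlier time (y axis), of COR47 and KIN2 in the 7 comparisons (x axis), with 95% confidence intervals from limma. COR47 at 12 h against 0 h is the single value with an adjusted p under 0.05, and the intervals of KIN2 are about 2 times as wide as those of COR47.

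Over the first day, COR47 had fitted changes against 0 h of 1.98 at 6 h, 1.08 (12 h), 0.36 (18 h) and 0.46 (24 h), and those of KIN2 were 1.68, 1.74, -0.03 and 0.61. The highest value of COR47 was at 6 h and the highest of KIN2 at 12 h. None of the differences tested passed, and 18 h and 24 h were not set against each other. For COR47, 6 h minus 12 h was 0.90 ± 0.42, with an interval of -0.05 to 1.84 (limma adjusted p = 0.999, unadjusted p = 0.0601). For COR47, 12 h minus 18 h was 0.72 ± 0.48 (adjusted p = 0.904 in limma), and 12 h minus 24 h was 0.62 ± 0.57 (adjusted p = 1). For KIN2 these differences were -0.06 ± 0.87, 1.76 ± 0.99 and 1.12 ± 1.18, with limma adjusted p = 0.999, 0.904 and 1. With an array left out, 6 h minus 12 h ran from 0.19 to 1.52 for COR47, at its lowest without array 1 of 6 h and at its highest without array 2 of 6 h. In both of those fits the dye term came from the 12 h arrays alone. For KIN2, 12 h minus 18 h was 3.52 on leaving out array 1 of 18 h and 0 on leaving out array 2. These 3 contrasts were chosen after the changes were seen. In limma each called 0% of targets, with 4.26%, 4.81% and 3.02% of them at an unadjusted p under 0.05. A moderated F-test over 6, 12 and 18 h together called COR47 (F = 18.5, limma adjusted p = 0.0287) and not KIN2 (F = 6.32, limma adjusted p = 0.123), with 3.49% of all targets called. The F-test call of COR47 was lost without array 2 (limma adjusted p = 0.0644), 3 (0.0993), 4 (0.0502) or 5 (0.116) of 12 h or array 1 (0.121) or 2 (0.0549) of 6 h. KIN2 passed the F-test without array 1 of 18 h (limma adjusted p = 0.0440) or array 2 of 18 h (0.0321).

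From 24 to 36 h, both genes were higher at the later time on the array labelled dark and on the array with no stated light condition. On the dark array COR47 stood at 1.69 and KIN2 at 2.29. On the other array COR47 stood at 1.57 and KIN2 at 1.80. The arrays had opposite channel orders, and before any dye correction they differed by about 0.1 for COR47 and about 0.5 for KIN2. The fitted change in the dark was 2.12 ± 0.54 for COR47 (limma adjusted p = 0.0772, unadjusted p = 0.00299) and 2.67 ± 1.11 for KIN2 (adjusted p = 0.243). On the other array it was 1.14 ± 0.54 for COR47 (limma adjusted p = 0.296) and 1.41 ± 1.11 for KIN2 (adjusted p = 0.553). On that array it was 0.08 for KIN2 when ScanAlyze 2.33 had a dye term of its own, and 0.28 for COR47 when feature 7892 was taken alone. Neither gene was called in either comparison, where 2.16% of all targets were called in the dark and 1.54% on the other array. Only 0.747% of targets had a larger fitted change than KIN2 in the dark, and 2.01% a larger one than COR47.

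The difference of the dark change minus the other change was 0.98 ± 0.80 for COR47 and 1.27 ± 1.67 for KIN2 (limma adjusted p = 1 for both). The intervals run from -0.83 to 2.78 and from -2.47 to 5.0. limma called 0% of targets here, with 3.43% at an unadjusted p under 0.05. Without the dye term, this difference was 0.13 for COR47 and 0.49 for KIN2. With a dye term of its own for ScanAlyze 2.33, it was 1.62 for COR47 and 3.92 for KIN2. The change from 24 to 36 h in the dark minus the change from 0 to 12 h was 1.04 ± 0.57 for COR47 and 0.94 ± 1.18 for KIN2 (limma adjusted p = 0.384 and 0.731, with 1.53% of targets called). For the array with no stated light condition it was 0.06 ± 0.59 and -0.33 ± 1.23 (adjusted p = 0.973 and 0.923 in limma, with 1.28% called). The sign of these last values changed between settings. A p above the threshold does not show that the changes are equal.

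At 60 h against 48 h in continuous light, neither gene was clearly above 0. COR47 stood at -0.08, with 2 of its 5 features above 0 and a range of -0.27 to 0.12. KIN2 stood at -0.62, and 92.0% of the targets of that array had a larger ratio. This was the single array with COR47 below 0, and 1 of 2 with KIN2 below 0. The fitted values were 0.35 ± 0.54 for COR47 and -0.23 ± 1.11 for KIN2 (limma adjusted p = 0.999 for both), with 0 of the 2 genes and 0.585% of all targets called. Taking the change from 0 to 12 h from that from 48 to 60 h left -0.73 ± 0.57 for COR47, with an interval of -2.01 to 0.54, and -1.97 ± 1.18 for KIN2, with an interval of -4.61 to 0.68. These differences did not pass (limma adjusted p = 0.943 and 0.824), and 0.432% of targets were called for them.

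The 5 features of COR47 differed in size more than in direction. Over the 13 arrays, feature 12517 ranged from -0.27 to 2.86 with a median of 1.64, and feature 1423 from -0.18 to 2.43 with a median of 1.42. Feature 7892 ranged from -0.10 to 2.54 with a median of 1.23. The remaining 2 were flatter, with feature 7722 between -0.13 and 1.70 and feature 10928 between -0.03 and 1.71. Of the 65 values of COR47 features, 57 were above 0, and on 9 of the 13 arrays all 5 features were. The distance between the lowest and the highest feature on an array ran from 0.29 to 1.77, with a median of 0.95. It was widest on array 1 of 18 h, where feature 7722 stood at -0.13 and feature 12517 at 1.64. Pearson's r between pairs of features over the 13 arrays lay between 0.738 and 0.935, a description, since features of 1 gene share the RNA and the array. Fitted one by one at 12 h, features 7892 (1.28, limma adjusted p = 0.025) and 12517 (1.48, 0.0241) were called, and features 1423 (0.93, 0.0684), 7722 (0.86, 0.0645) and 10928 (0.85, 0.0532) were not. KIN2 rests on feature 12322 alone, and its values have no second feature to be set against.

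**Figure D3:**
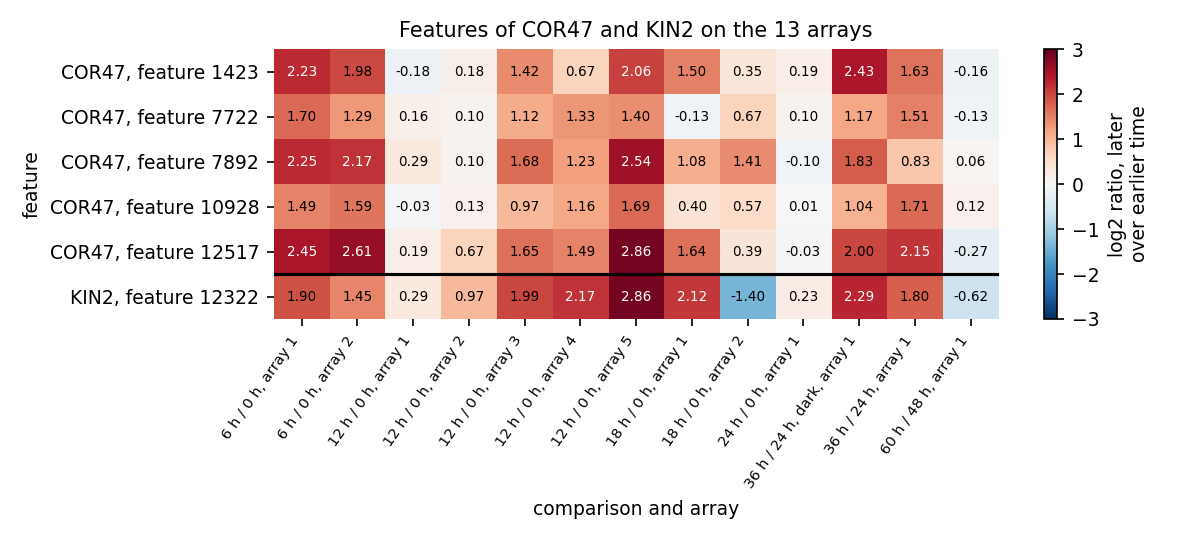
Log2 ratio of the later over the earlier time of each feature of COR47 and KIN2 (rows) on each of the 13 arrays (columns), with red above and blue below 0. The COR47 features are above 1 on both arrays of 6 h, near 0 at 24 h and 60 h, and range from -0.13 to 1.64 on array 1 of 18 h, while KIN2 stands at -1.40 on array 2 of 18 h.

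COR47 and KIN2 moved alike over the arrays. COR47 was above 0 on 12 of the 13 arrays and KIN2 on 11, and ratios of at least a doubling were seen on 7 arrays for COR47 and 8 for KIN2. Pearson's r between the 2 genes was 0.739 and Spearman's rho 0.720 over 13 arrays. Without the 2 arrays farthest from the median of COR47, r was 0.636. Most arrays have 0 h as the earlier time and all have 1 of 2 channel orders, so r is a description. The largest gap was on array 2 of 18 h, with COR47 2.08 above KIN2. Of the COR47 features, 12517 followed KIN2 most closely (r = 0.832) and 7722 least (r = 0.574).

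**Figure D4:**
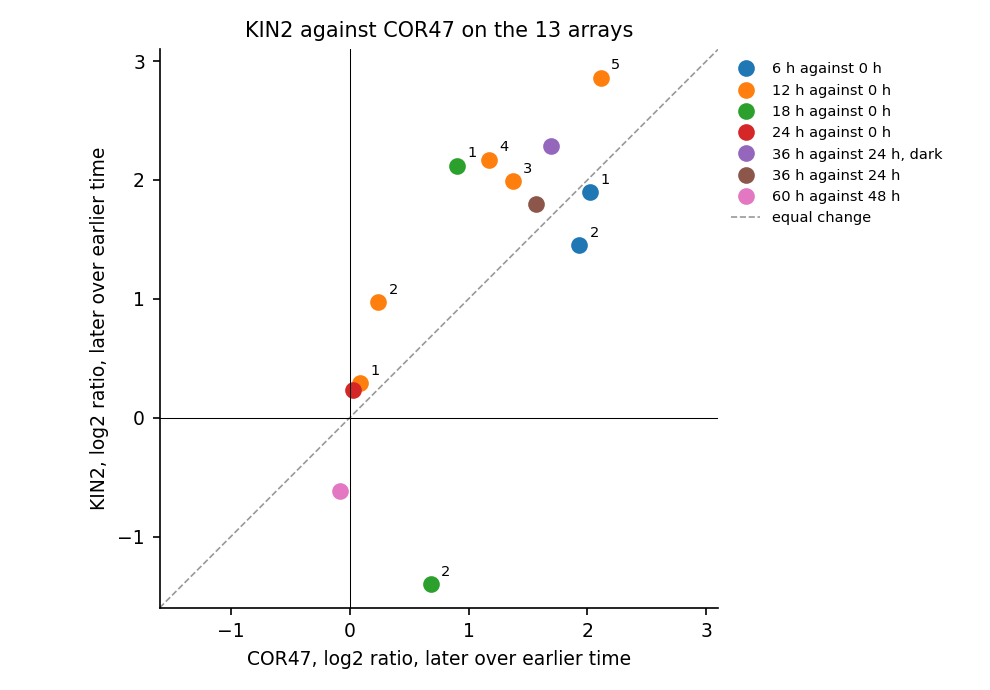
KIN2 (y axis) against COR47 (x axis), each as a log2 ratio, later over earlier, with 1 point for each of the 13 arrays and array numbers where a comparison has more than 1. Array 2 of 18 h lies farthest from the dashed line of equal change, at 0.68 for COR47 and -1.40 for KIN2, and the 5 arrays of 12 h lie above that line.

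Of 3632 named genes with a value on every array, the nearest in pattern to COR47 was DAYSLEEPER (r = 0.868), a gene derived from a transposase. It was followed by AT3G07860 (0.841), AT4G19920 (0.838), AT4G30660 (0.836) and AT4G09500 (0.826). KIN2 came 27th in that order. The nearest to KIN2 were AT4G21570 (0.827), AT3G28040 (0.801), AT3G47550 (0.777), AT4G30660 (0.769) and DAYSLEEPER (0.762), and COR47 came 7th. AT4G30660 and DAYSLEEPER are on both lists. Their fitted changes at 12 h, given with no test because the same arrays chose them, were 1.96 for AT4G09500, 1.52 for AT4G30660, 0.91 for AT3G28040 and 0.78 for AT4G19920. AT4G21570 had 0.68, AT3G47550 had 0.65 and DAYSLEEPER had 0.46. AT3G07860, the second nearest to COR47, had -0.06, so a like pattern over the arrays did not always come with a like change at 12 h. With Spearman's rho, 4 of the 5 genes nearest to COR47 and 3 of those nearest to KIN2 stayed among the 5, and without array 1 of 12 h 2 and 3 did. These genes were ranked over the same arrays and their likeness is a description.

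A list of 66 cold, dehydration and abscisic acid genes had 6 measured members, COR47 and KIN2 among them. The measured genes were 3 of 7 dehydrins, 2 of 13 further COR, KIN and related proteins, and 1 of 13 late embryogenesis abundant and drought proteins. KIN2 is counted among the COR, KIN and related proteins. None of the 9 genes of osmolyte and sugar metabolism, the 14 regulators including the CBF genes, the 8 genes of abscisic acid signalling and the clock-regulated RNA-binding proteins GRP7 and GRP8 had a named feature. At 12 h the 6 genes had a median change of 0.66, against -0.01 over all targets, with 1 called higher and 0 lower where 4.11% of all targets were called. At 6 h the median was 0.90, against 0.01 over all targets, and 0 were called. The 4 genes besides COR47 and KIN2 had medians of 0.52 at 6 h, 0.32 at 12 h, 0.85 at 18 h and -0.17 at 24 h. Their medians were 0.31 from 24 to 36 h in the dark, 0.82 on the other array from 24 to 36 h, and -0.44 at 60 h.

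The other 4 genes of the list gave 0 calls in either direction in any comparison, beside shares of 0% to 4.11% over all targets, so that a count of 0 of 4 is near the background. LTI30, a cold-induced dehydrin, stood at 0.84 ± 0.44 at 6 h and at 0.28 ± 0.28 at 12 h (limma adjusted p = 0.426 and 0.608). On array 2 of 12 h it reached 2.10, against -0.21 to 0.15 on the other 4. The small dehydrin gene HIRD11 (AT1G54410), with 13 features, had changes of 0.95 ± 0.40 (6 h), 0.35 ± 0.25 (12 h) and 1.04 ± 0.45 (18 h) (limma adjusted p = 0.298, 0.460 and 0.823). At 18 h it stood at 2.02 on array 1 and at 0.01 on array 2. COR28 (AT4G33980), a cold-regulated gene that acts with the clock, stood at 0.20 ± 0.48 at 6 h and at 0.98 ± 0.31 at 12 h (limma adjusted p = 0.925 and 0.112). From 24 to 36 h it stood at 2.45 ± 0.73 without a stated light condition (adjusted p = 0.126 in limma) and at 1.01 ± 0.73 in the dark (adjusted p = 0.529). At 60 h LTI30 stood at -1.35 ± 0.67 and COR28 at -1.06 ± 0.73 (limma adjusted p = 0.999 for both). LEA4-5, of the late embryogenesis abundant class, stayed between -0.46 and 0.26 in all 7 comparisons. COR47 and KIN2 had the highest fitted values of the 6 genes at 6 h, at 12 h and from 24 to 36 h in the dark, and COR28 had the highest on the other array from 24 to 36 h.

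**Figure D5:**
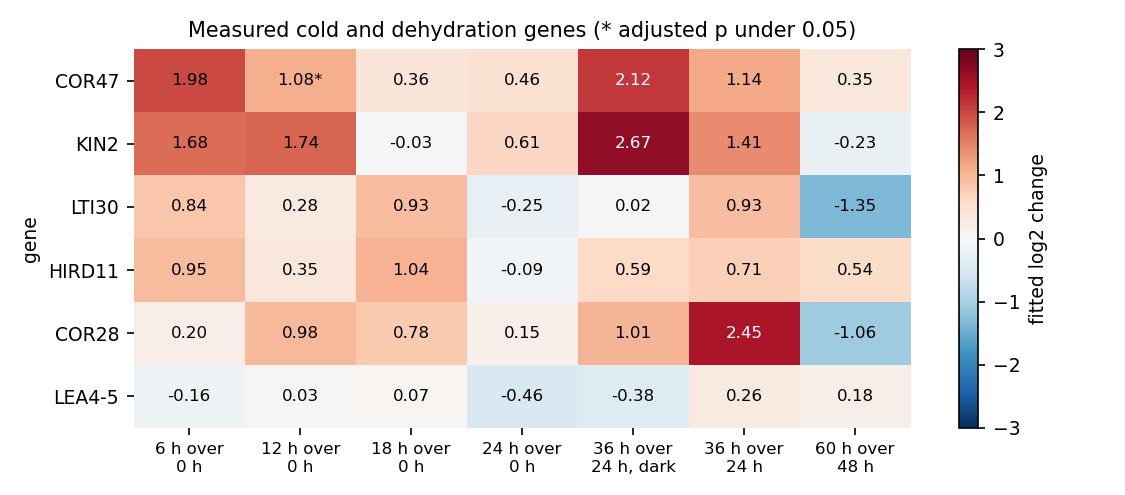
Fitted log2 change of the later over the earlier time for the 6 measured genes of the cold and dehydration list (rows) in the 7 comparisons (columns). COR47 at 12 h, with 1.08, is the one value marked as passing, and COR28 reaches 2.45 at 36 h against 24 h.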

How the data were processed

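Spotted 2-colour cDNA arrays measured RNA of 13 pairs of harvests. For each feature of an array the authors deposited 1 log2 ratio. ScanAlyze was used for reading the arrays, per the labels, as version 2.33, 2.42 or 2.44, while background correction, normalization, channel on top and genome build are not given in the sources used here. Base 2 was taken from the values themselves: a ratio of 1/2 in log2 occurs 159 times, against a mean of 20.4 at neighbouring steps, and there is no excess at its natural log. The title of array 2 of 6 h lists the times in another order than its channels, which were followed.

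Of the 12800 features, 5190 had 1 annotated gene found in the TAIR10.1 gene table, 7 had 1 gene not found there, 214 had several and 7389 were not listed. Features of a gene were averaged. Ratios were centred on the array median and turned to later over earlier time. limma 3.58.1 in R 4.3.3 was fitted to 11290 targets with values on at least 10 arrays, with a term for each pair of times and 1 for the dye, which left 5 residual degrees of freedom. The test was also run on simulated data, and the outcome of that run is not reported here. Adjusted p under 0.05 is called. Errors are SE unless SD is named. Separate cultures of plants are not stated for the arrays, although 3 titles hold the word biological, so the p-values rest on a spread between arrays that may be technical. Precision is limited by how many arrays there are.

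COR47, KIN2, the gene list and the contrasts were chosen with earlier results of these data known. Besides these, the genes named are the 5 with the highest r with each over the arrays. The settings tried are in the closing section. Promoter and protein sequences were planned and are not used here.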

Additional observations from a re-analysis of the deposited data

How the results depend on the processing

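COR47 and KIN2 at 6 h, 12 h and from 24 to 36 h kept a positive sign in all settings run: no dye term, no centring, arrays scaled to 1 spread, a separate dye term for ScanAlyze 2.33, array 2 of 6 h turned as its title reads, values on all 13 arrays, single features, each array of 6, 12 and 18 h left out, and single software versions (the last chosen after seeing the data). Sizes were less stable, down to 0.08 for KIN2 and 0.28 for COR47 at 36 h where no light condition is stated. At 12 h the change of COR47 missed the threshold without the dye term (1.0), with scaling (0.94), a separate dye term (1.25) or array 2 of 6 h turned (1.12), for features 1423 (0.93), 7722 (0.86) and 10928 (0.85), and on the ScanAlyze 2.44 arrays alone (0.16). With an array left out it ran from 0.84 to 1.22. KIN2 passed at 12 h with a separate dye term (2.43) and on the 2.33 arrays alone (2.30, with 1 residual degree of freedom), and ran from 1.44 to 2.00 with an array left out. COR47 passed at 6 h on complete targets (1.98) and for features 7892 (2.21) and 12517 (2.53), with 1.31 to 2.64 over left-out arrays, and in the dark for feature 1423 (2.93). The values 1.31 and 2.64 are from fits with 1 array of 6 h left, where the dye term came from the 12 h arrays alone. Its F-test gave adjusted p = 0.0816 under a separate dye term, 0.827 when array 2 of 6 h was turned and 0.0104 to 0.121 over left-out arrays, and that of KIN2 0.0321 to 0.334. For these moved calls the cause was not tested.

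Values never called turned sign. KIN2 at 18 h was 0.36 without the dye term and 0.11 with scaling, and ran from -1.79 to 1.73 over left-out arrays. KIN2 was -0.21 at 24 h and 1.09 at 60 h under a separate dye term, and 0.02 at 60 h when array 2 of 6 h was turned (-0.45 to 0.02 over left-out arrays). COR47 at 60 h was -0.08 without the dye term and on the 2.44 arrays alone. The change from 24 to 36 h without a stated light condition minus that at 12 h was, for COR47, -0.20 with scaling, -0.43 under a separate dye term, -0.18 when array 2 of 6 h was turned, -0.99 for feature 7892 and -0.18 to 0.48 over left-out arrays, and for KIN2 0.14 without the dye term and -0.63 to 0.19. The change at 6 h minus that at 12 h was -0.45 for COR47 with array 2 of 6 h turned, and for KIN2 0.02 without the dye term, 0.04 with scaling, 0.32 with a separate dye term and -0.97 to 0.76. The change of KIN2 at 12 h minus that at 18 h ran from 0 to 3.52. COR47 minus KIN2 at 12 h ran from -0.78 to -0.58 over left-out arrays. Counts over all targets moved more: 0 to 272 at 6 h (1 as reported), 0 to 1063 at 12 h (464), 0 to 156 at 18 h (0), 0 to 21 at 24 h (2), 0 to 361 in the dark (243), 0 to 237 at 36 h (174), 23 to 188 at 60 h (65) and 0 to 908 for the F-test (394). The highest counts at 6 h, at 12 h and for the F-test came without array 1 of 12 h. With array 2 of 6 h turned, the counts at 12 h and for the F-test were 0. No paired analysis was possible because the labels number no arrays across comparisons.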
